A study of Mus musculus with 14 samples.

Results

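The cells called cXENp1, caught at the first passage of a chemical conversion of mouse embryonic stem cells (ESCs) into extraembryonic endoderm (XEN) cells, were compared with established XEN lines: 4 cXENp1 libraries against 2 XEN libraries, 6 of the 14 RNA-seq libraries of the series. Libraries were chosen by their labels alone. The question was which expression programmes of the treated cells lie off the path from ESC to XEN, and which XEN programmes they still lack. The cXENp1 libraries come from 4 lines of strain 129S1/SVImJ: 3WT (WT), 3.34Null and 2.6Null (both Zfp281KO), and 3.34Null-Rescue (Zfp281KO+Zfp281 Rescue). Each line had been moved from ESC culture into XEN medium and, after 24 hours, had received all-trans retinoic acid at 0.01 µM with activin A at 10 ng/mL for 48 hours. They had not yet been plated on fibroblast feeders, which comes at the next passage. The endpoint is XENB1 (129S1) and XEN5 (129S1/SVImJ), both WT, grown without feeders in XEN medium conditioned by embryonic fibroblasts. ESC libraries of the same 4 lines, grown without feeders in serum and LIF, give the start of the path. Each line was sampled once at a stage and the lines differ in genotype. The spread behind the tests that involve XEN is therefore the spread between lines. For cXENp1 against ESC, where the libraries of a line are paired, it is the spread of the change between lines. The name of 3.34Null-Rescue contains that of 3.34Null, so these lines may not be independent.

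XEN cells are stem cells derived from the primitive endoderm, the lineage that lines the yolk sac. Primitive endoderm is set up by GATA factors and SOX17 under FGF signalling, and its descendants secrete basement membrane (parietal endoderm) or take up and digest maternal nutrients (visceral endoderm). Retinoic acid acts through nuclear receptors that bind pairs of short half-sites in DNA, and it switches on its own degrading enzymes, its binding proteins and the Hox genes that pattern the embryo from head to tail. Activin signals through SMAD proteins and shares its targets with Nodal.

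Genes of the response to retinoic acid stood above both ESC and XEN in cXENp1, so the 2 promoters in its list that hold a receptor half-site pair with a spacer of 5 bases are shown. The sequences are RefSeq's, build GRCm38.p6, read 5′ to 3′ on the strand of the gene, with the half-sites in capitals. Cyp26a1 lies at chr19:37697746-37697807 on the plus strand, with the pair from 32 to 16 bases before the gene's start. Rarb lies at chr14:16575483-16575559 on the minus strand, with the pair from 53 to 37 bases before the start.
Cyp26a1: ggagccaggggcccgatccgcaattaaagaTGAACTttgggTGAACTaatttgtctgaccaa
Rarb: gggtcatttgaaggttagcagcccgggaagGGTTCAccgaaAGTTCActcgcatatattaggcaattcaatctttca
The search took any pair of half-sites in the same direction, on either strand, with a spacer of 2 or 5 bases. A half-site could read AGGTCA. It could also read AGTTCA, the form found in both promoters on 1 of the strands. The form GGTTCA, seen in Rarb, was taken too, and so was a form that reads GGGTCA. Windows ran from 250 bases before to 50 bases after a start. The spacer of 5 was found in 32 of 32851 windows (0.097%) and the spacer of 2 in 88 (0.268%). Of the 22 genes of the retinoic acid list, 15 had a window, 2 of them with the spacer of 5 and 0 with the spacer of 2. Of 39 Hox genes, 22 had a window and 0 held either pair. A match describes these letters only.

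Values were taken as FPKM from their range and from the tools the submitters name, since the labels do not state the unit. In FPKM, fragments are divided by gene length and by the size of the library, so levels of different genes are comparable per length, and the sequencing depth behind them is unknown. Sums of FPKM ran from 424406 to 520485 in cXENp1 and from 591482 to 606565 in XEN, with 16358 to 16831 and 14972 to 15888 genes above 0. Zfp281, the deleted gene, had 25.1 FPKM in 3WT cXENp1, 27.2 in 3.34Null-Rescue, 1.29 in 3.34Null and 0 in 2.6Null, beside 10.6 in XENB1 and 12.5 in XEN5. The 2 Zfp281KO libraries were the lowest, as labelled. An exact 0 in this table can be a failed estimate: Eef1a1, a translation factor that every cell uses, is listed at 0 in the ESC and cXENp1 libraries and at 5097 and 5694 FPKM in the XEN lines. Genes at 0 throughout a stage are therefore reported as listed at 0, without a fold. Below, the 4 cXENp1 values are given in the order 3WT, 3.34Null-Rescue, 3.34Null, 2.6Null, and the 2 XEN values in the order XENB1, XEN5. Differences are of means of log2(FPKM + 1), cXENp1 minus XEN unless said otherwise, and understate the change of low genes. Genes with a limma p below 0.05 after Benjamini-Hochberg adjustment over all genes tested are referred to as called.

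Of 12632 genes tested, 4855 (38.4%) were called between cXENp1 and XEN, 2275 higher (18.0%) and 2580 lower (20.4%) in cXENp1. Of these, 141 of the higher and 38 of the lower genes are listed at 0 throughout cXENp1 or XEN. Fitted without all such genes, 2137 were higher and 2542 lower. Centring each library on its median moved the median of all genes from -0.03 to 0.08 and gave 2714 higher and 2186 lower. The count rests on both XEN lines: it was 2655 without XENB1 and 2056 without XEN5. In bulk RNA, fewer cells of a type and less RNA per cell cannot be told apart.

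Each called gene was then placed by its ESC level, with a distance of 1 on the log2 scale as the bound. In cXENp1, 610 genes (4.83% of those tested) stood above XEN and at least 1 above ESC ("above both ends"), and 254 (2.01%) stood below XEN and at least 1 below ESC ("below both ends"). Another 794 (6.29%) kept their ESC level while XEN was lower, and 204 (1.61%) were falling from it. Of the genes that XEN expressed more highly, 1242 (9.83%) were still at the ESC level and 295 (2.34%) had begun to rise. The remaining 1456 called genes had no class. Irrespective of the call, 1038 genes (8.22%) had every cXENp1 library above all ESC and XEN libraries, and 759 (6.01%) had every one below. Without XEN5 the 6 numbers were 320, 123, 479, 108, 572 and 173 in the order given, and without XENB1 the genes below both ends numbered 125, those not begun 672 and those begun 183. Without the cXENp1 library of 2.6Null the genes below both ends numbered 389. Some genes are classed through a 0 in every cXENp1 or every XEN library, which can be a failed estimate. They are 59 of the 610, 42 of the 794, 11 of the 204 and 38 of the 1242. Col4a1, Col4a2, Lama1 and Sparc stand above both ends in this way.

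**Figure D1:**
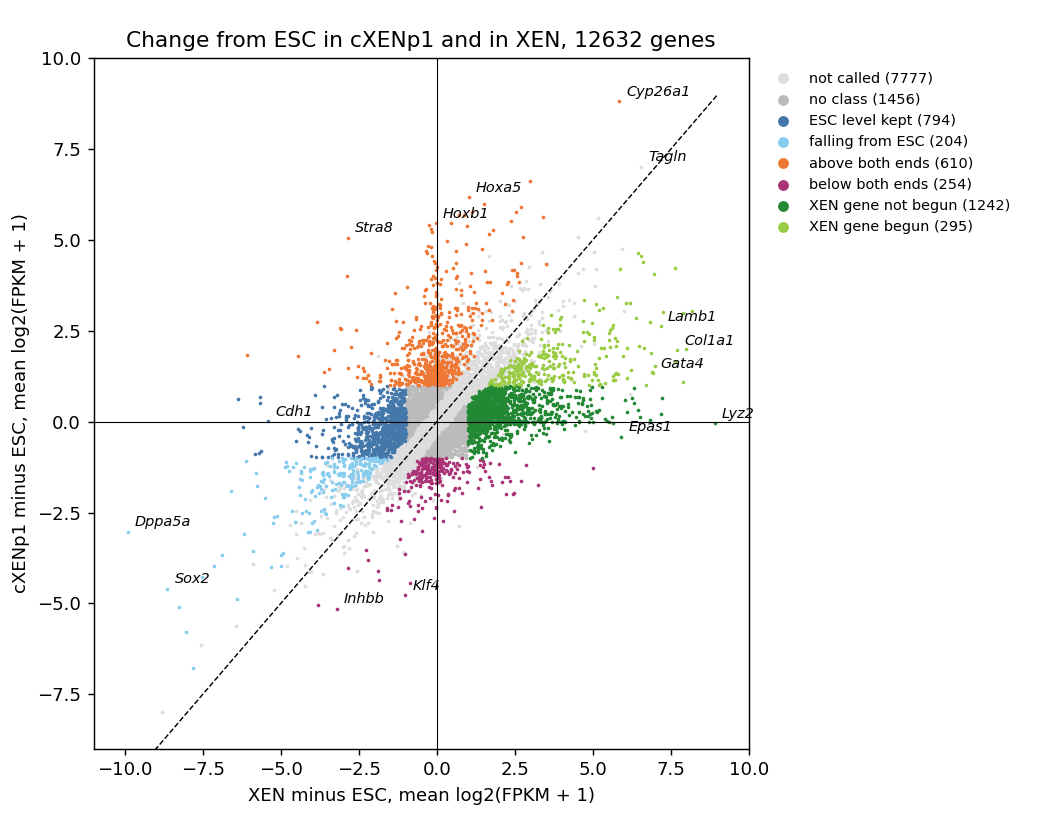
Each point is 1 of 12632 genes, with the mean XEN level minus the mean ESC level on the horizontal axis and the mean cXENp1 level minus the mean ESC level on the vertical axis, both as log2(FPKM + 1); colours are the classes and the dashed line marks equal change. Cyp26a1, Hoxa5 and Stra8 stand above both ends, Klf4 and Inhbb below both, Lyz2 and Epas1 along the horizontal axis where XEN genes have not begun, and Tagln near the dashed line.

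Over the whole profile, cXENp1 was between ESC and XEN along the line that joins them and far to its side. With the ESC mean at 0 and the XEN mean at 1, over 13149 genes, the cXENp1 libraries lay at 0.397, 0.354, 0.393 and 0.503 (mean 0.412 ± 0.064, SD, n = 4). Their distance from the line, in units of its length, was 0.679, 0.628, 0.648 and 0.56 (mean 0.629 ± 0.05). Each ESC library placed against the other 3 was 0.293 to 0.487 off the line, and each XEN line placed against the other 0.403 to 0.405. All 4 cXENp1 libraries were thus farther off it than any ESC or XEN library. The squared distance of the cXENp1 mean from the line was split over 12750 genes, without those listed at 0 in a whole stage. Of it, the retinoic acid list gave 3.31% with 0.157% of the genes, and the Hox genes gave 3.59% with 0.235%. Every list but the cell cycle gave more than its share of genes. Pluripotency gave 1.21% with 0.133%, TGF-beta and activin targets 0.89% with 0.141%, and visceral endoderm 0.72% with 0.125%. The XEN transcription factors, whose change points along the line, gave 0.22% with 0.149%.

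**Figure D2:**
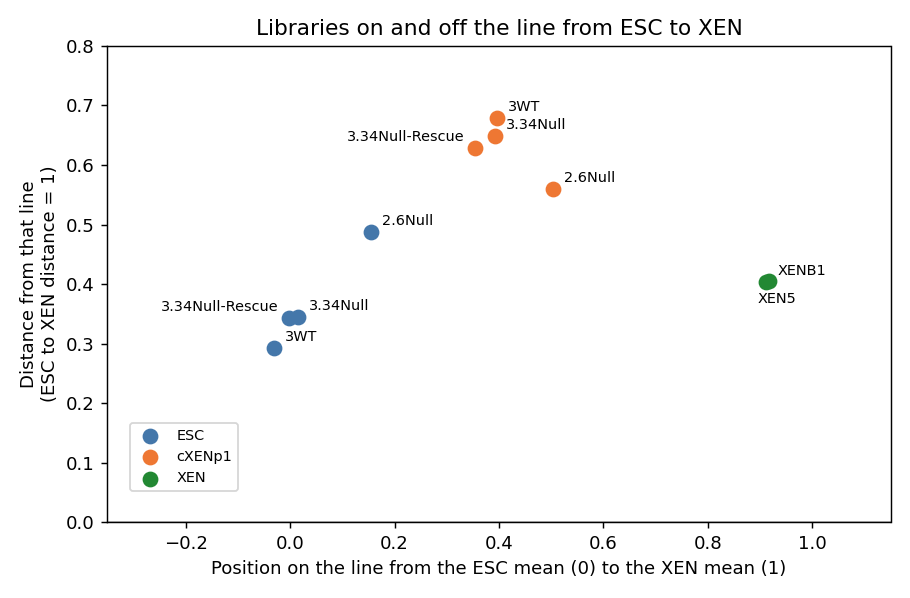
Each point is a library, with its position between the ESC mean (0) and the XEN mean (1) on the horizontal axis and its distance from that line on the vertical axis, in units of the line's length; ESC and XEN libraries are placed against the others of their stage. The cXENp1 libraries lie at positions 0.354 to 0.503 and, at distances of 0.56 to 0.679, above every ESC and XEN library.

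Genes of retinoic acid metabolism and response were mostly higher in cXENp1 than at either end. Of 22 listed genes tested, 15 were called higher in cXENp1 than in XEN and 1 lower, against 18.0% and 20.4% of all genes, and the median difference was 2.80 against -0.03. Against ESC 17 of 22 were higher and 3 lower, where 45.9% of 12724 genes were called, 22.9% each way. The lists were drawn up with earlier results of these data known. Cyp26a1, which encodes the main enzyme that breaks down retinoic acid, had 649.4, 445.3, 524.1 and 596.8 FPKM in cXENp1, 69.7 and 69.5 in XEN and at most 0.612 in ESC. It exceeded XEN by 2.96 (SE 0.19, adjusted p 0.000149), and the groups were far apart. Its relatives Cyp26b1 (58.8, 21.7, 81.6 and 52.7 FPKM against 0.470 and 0.624) and Cyp26c1 (2.35, 2.02, 2.23 and 1.58 against 0.195 and 0.0438) were below 1 FPKM in both XEN lines, so that Cyp26a1 alone of the 3 degrading enzymes was well expressed in XEN.

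Receptors and binding proteins differed from gene to gene. Rarb, the receptor that retinoic acid itself induces, had 36.7, 33.9, 21.6 and 33.6 FPKM against 2.23 and 2.15 (difference 3.32, SE 0.24, adjusted p 0.000224). The constitutive receptors Rara and Rarg were not called (0.54, 95% interval 0.01 to 1.06, and 0.74, -0.05 to 1.53). Crabp2, which carries retinoic acid to the nucleus, had 256.2, 279, 206.4 and 153.7 FPKM against 12.4 and 4.70, a difference of 4.65 (SE 0.37, adjusted p 0.000338). Dhrs3, which turns retinal back into retinol, was higher by 3.47. The exception in the list was Stra6, the membrane receptor that takes up retinol: 38.6, 27.6, 11.2 and 22.2 FPKM in cXENp1 lay between ESC (at most 0.251) and XEN (58.5 and 209.8), and the difference was -2.23 (SE 0.59, adjusted p 0.0227). It was not called without XEN5 or with the 2 Zfp281-present cXENp1 libraries alone. Among targets, Stra8, the gene through which retinoic acid starts meiosis in germ cells, had 182.8, 350.1, 246.8 and 218.1 FPKM, against 4.07 to 13.0 in ESC and 0.0391 and 0 in XEN. Its difference of 7.90 (SE 0.26, adjusted p 3.36e-05) was the largest gain over XEN by the rule for named genes. The transcriptional cofactors of Hox proteins Meis1 and Meis2 were higher by 1.76 and 3.15.

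The Hox genes were high in cXENp1 as a group, and Hoxb1 of the retinoic acid list is among them. Of 39 Hox genes, 32 passed the filter on low values. By limma 22 of these were called higher than XEN and 0 lower, against 18.0% and 20.4% of all genes. At an unadjusted limma p under 0.05 the counts were 24 and 0. A gene can pass this filter through cXENp1 alone, and such a gene could hardly be called lower. With every gene above 0 in any fitted library tested, 22 of 39 were called higher and 1 lower. All 22 called in the main fit stood above both ends. Of 32 tested against ESC, where the filter acts in the same way, 30 were higher (22.9% of all genes). XEN against ESC gave 8 of 13 higher (22.2% of 12372 genes). The 10 tested genes that were not called were Hoxa9, Hoxa10, Hoxc6, Hoxc10, Hoxc11, Hoxc13, Hoxd4, Hoxd8, Hoxd9 and Hoxd13, and none of the Hoxb cluster. Hoxa5 had 82.8, 87.6, 82.5 and 55.3 FPKM against 2.76 and 0.244 in XEN (difference 5.15, SE 0.42, adjusted p 0.000358). Hoxb2 had 56.1, 68.8, 78.0 and 51.8 FPKM against 3.06 and 1.02, and it is listed at 0 in all ESC libraries. Hoxb1, an early and direct retinoic acid target of the hindbrain, had 51.0, 74.2, 41.6 and 23.3 FPKM and is listed at 0 in both XEN lines and at no more than 0.0476 in ESC. The posterior gene Hoxb13 was at 65.2, 9.26, 16.3 and 28.3 FPKM against 0.124 and 0.443. Among the genes not called, Hoxc6 had 5.58, 3.85, 5.87 and 2.39 FPKM against 4.57 and 1.90 (difference 0.38, 95% interval -0.52 to 1.27, adjusted p 0.457). Hoxa10 had 6.97, 1.86, 29.5 and 6.51 FPKM against 2.69 and 3.27 and was not called either (adjusted p 0.303). Neighbouring Hox transcripts can overlap, and how the table splits their fragments is not known.

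**Figure D3:**
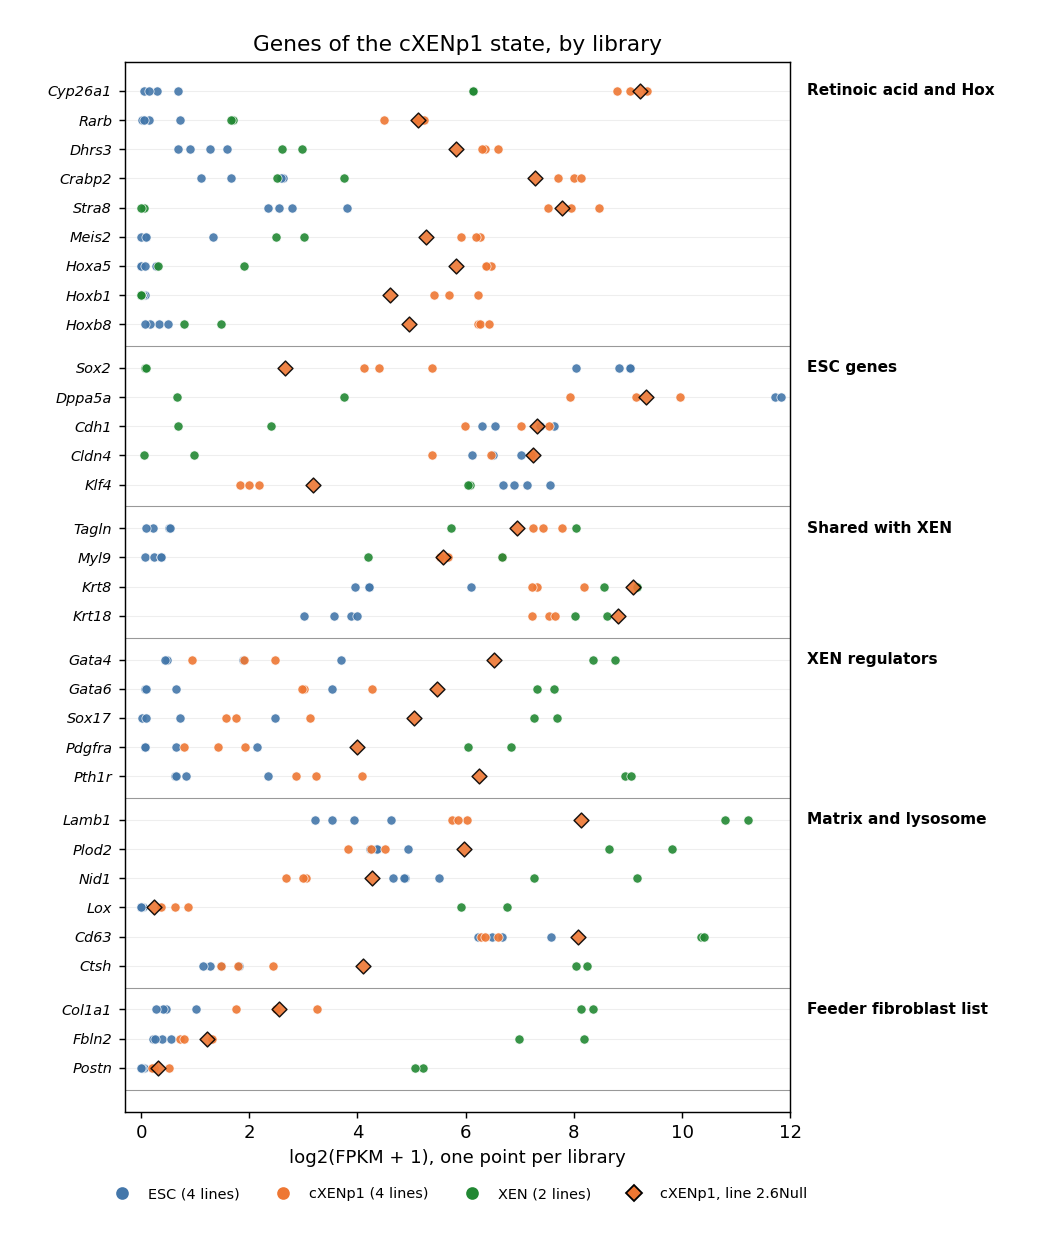
Each row is a gene and each point a library at its log2(FPKM + 1), coloured by stage, with the cXENp1 library of line 2.6Null drawn as a diamond. For the retinoic acid and Hox genes the cXENp1 points lie right of every ESC and XEN point, for Tagln and Myl9 they lie among the XEN points, and for Gata4 the 2.6Null diamond (91.2 FPKM) lies between the other cXENp1 lines and XEN.

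Some neural and early embryonic genes were also above both ends. Of 10 neural genes tested, 5 were called higher than XEN and 0 lower (3 higher without XENB1, and 7 and 0 at an unadjusted limma p under 0.05). All genes gave 18.0% higher and 20.4% lower. Here and in the primed epiblast list, a gene can pass the filter through cXENp1 alone and could then hardly be called lower. With every gene above 0 in any fitted library tested, 6 of 20 neural genes were called higher and 0 lower. For primed epiblast genes that fit gave 5 of 14 higher and 0 lower. Pax6, a regulator of eye and brain, had 16.4, 9.77, 4.03 and 4.55 FPKM against 0 and 0.114 and at most 0.324 in ESC. Sox3, expressed in neural progenitors, had 13.4, 41.0, 15.7 and 4.36 FPKM against 0.0381 and 0.661. Sox1, another neural progenitor factor, was not called against ESC: its 6.53, 14.6, 24.3 and 3.63 FPKM were within the ESC range of 3.92 to 27.5 in 3 of the 4 lines, and it is listed at 0 in both XEN lines. The primitive streak gene T (Brachyury) was too low to test, at most 0.487 FPKM in cXENp1. Of 12 primed epiblast genes tested, 6 were called higher and 0 lower (10 and 0 at an unadjusted limma p under 0.05), a count that fell to 3 without 3.34Null, 3.34Null-Rescue, XENB1 or XEN5 and after quantile normalization, and was 9 without 2.6Null. Among them Sox4, with 135.7, 125.9, 147.9 and 73.3 FPKM against 12.6 and 14.4, exceeded XEN by 3.02 (SE 0.29, adjusted p 0.000596).

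Some genes outside these lists were also above both ends. Rec8, a cohesin subunit of meiosis, had 97.8, 73.1, 114.3 and 117.2 FPKM against 3.12 and 0, and 8.30 to 22.6 in ESC. Zscan4d, Zscan4c and Zscan4f, which mark a rare early-embryo-like state of ESC cultures, were at 18.6 to 101.2 FPKM in all cXENp1 libraries, at most 1.07 in ESC and at most 0.0605 in XEN. These 3 genes are near-identical copies whose fragments may be split among them. The imprinted gene Mest had 433.3, 504.3, 714.1 and 420.9 FPKM against 1.11 and 7.43, and 20.7 to 63.9 in ESC (difference 6.91, SE 0.51, adjusted p 0.00024).

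Traces of the ESC programme separated into 3 kinds. Of 20 listed pluripotency genes, 19 were called lower in cXENp1 than in ESC (22.9% of all genes). Of the 16 tested against XEN, 9 were called higher, 1 was lower and 6 were not called, where all genes gave 18.0% higher and 20.4% lower. The first kind is the 7 that had fallen from ESC and were still above XEN: Dppa5a, Esrrb, Nanog, Pou5f1, Sox2, Utf1 and Zfp42. XEN against ESC likewise gave 19 of 20 lower (19.7% of all genes). Sox2, a core pluripotency factor, was at 260.7 to 524.8 FPKM in ESC, 19.96, 40.8, 16.4 and 5.35 in cXENp1 and 0.0549 and 0.0709 in XEN. Pou5f1 (Oct4) had 27.0, 39.6, 21.0 and 30.6 FPKM against 10.4 and 0, with 912 to 1312 in ESC. The Pou5f1 difference of 3.15 (SE 0.83, adjusted p 0.0231) was not called without 3.34Null-Rescue. Dppa5a, an RNA-binding protein of ESCs, was still at 242.1, 563.4, 997.1 and 642.8 FPKM against 12.4 and 0.591. XENB1 had more of several ESC transcripts than XEN5, as these values show for Pou5f1 and Dppa5a.

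A second kind kept its ESC level. Cdh1 (E-cadherin), the adhesion protein of epithelia and of ESC colonies, had 62.3, 128.7, 184.3 and 159.5 FPKM in cXENp1 and 77.5 to 196.4 in ESC, against 4.28 and 0.610 in XEN. The tight-junction gene Cldn4 had 40.7, 87.7, 147.0 and 151.1 FPKM against 0.963 and 0.040. Nodal, the activin-related ligand of the early embryo, kept 18.0, 37.9, 12.4 and 11.5 FPKM against 0.427 and 0. Its antagonist Lefty2 was at 6.27 to 53.2 FPKM and is listed at 0 in both XEN lines. Igfbp2, an IGF-binding protein, and the amino acid transporter Slc38a4 belong to the same kind, with differences of 6.35 and 6.18. The last kind went up instead: Dppa2, a chromatin factor of ESCs and of the early embryo, had 39.96, 64.1, 160.2 and 126.7 FPKM in cXENp1, 15.3 to 55.1 in ESC and 0.255 and 0 in XEN. It was higher than in ESC by 1.80, although 3WT was within the ESC range. Its partner Dppa4, at 20.5, 40.1, 41.9 and 33.0 FPKM, was lower than in ESC by less than 1 on the log2 scale. Cdh2 (N-cadherin) rose beside the retained Cdh1, to 23.3, 23.8, 13.6 and 6.39 FPKM from at most 0.221 in ESC, and exceeded XEN (4.92 and 4.001) by 1.55 (SE 0.48, adjusted p 0.0401). That call was lost without 3WT, 3.34Null, 3.34Null-Rescue, XENB1 or XEN5, and after quantile normalization.

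Some genes that both ESC and XEN express were lower in cXENp1 than in either. Klf4, a pluripotency factor that XEN lines also use, was at 102.7 to 187.5 FPKM in ESC and 66.7 and 64.5 in XEN, and at 2.56, 3.53, 3.00 and 8.06 in cXENp1 (difference -3.76, SE 0.37, adjusted p 0.000674). Spp1 (osteopontin) had 10.8, 18.6, 7.19 and 16.6 FPKM against 230.0 and 113.9 in XEN and 130.2 to 523 in ESC. The stem cell factor receptor Kit was at 7.70, 11.8, 4.98 and 4.38 FPKM against 72.3 and 105.5, with ESC libraries at 34.9 to 53.6 except 2.6Null at 3.96. Vegfa, the endothelial growth factor, had 5.51, 2.16, 3.77 and 14.1 FPKM against 50.8 and 34.7 in XEN and 17.6 to 28.3 in ESC; the call was lost without XENB1. Of the nucleoside handling genes, the transporter Slc29a1 (difference -2.58) and the phosphorylase Upp1 (-2.62) followed this pattern, but Upp1 was not called without 3WT, 3.34Null, 3.34Null-Rescue, XENB1 or XEN5. Inhbb, an activin subunit, was at 36.1 to 40.01 FPKM in ESC, at most 0.171 in cXENp1 and 4.45 and 2.27 in XEN.

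**Figure D4:**
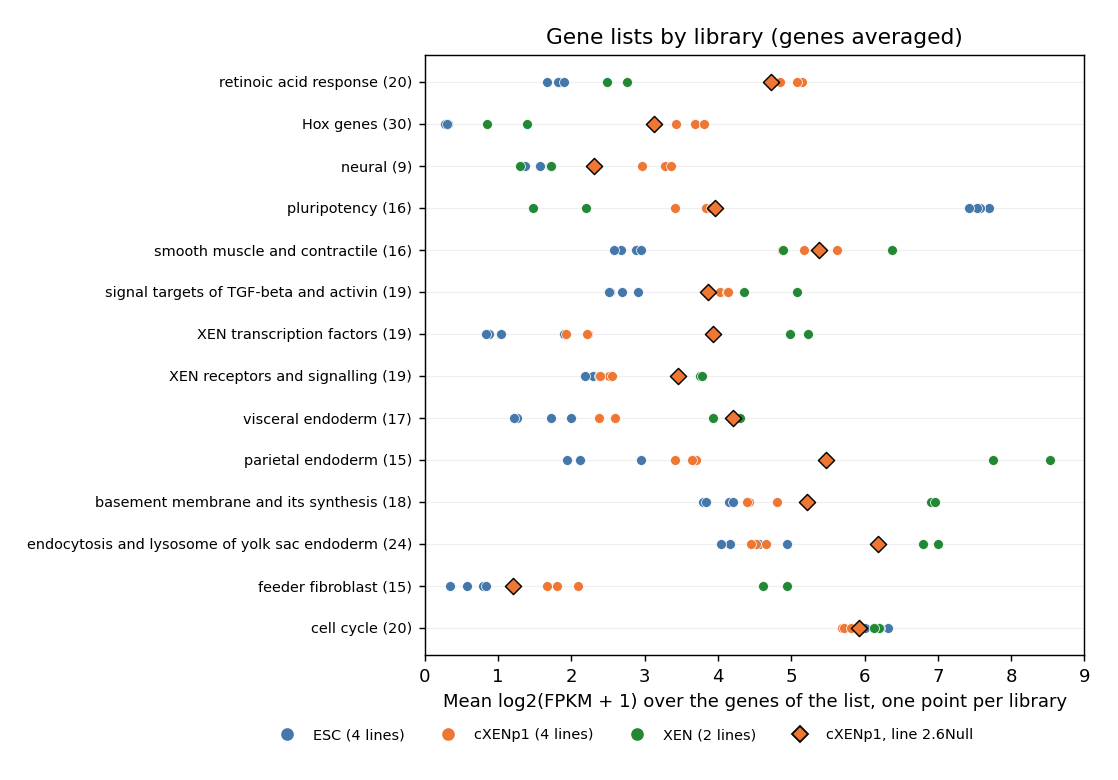
Each row is a gene list, with the number of genes averaged in parentheses, and each point is a library at its mean log2(FPKM + 1) over those genes (tested genes not listed at 0 in XEN). cXENp1 lies right of both other stages for retinoic acid and Hox genes, among XEN for contractile genes and left of XEN for the feeder fibroblast list, and the 2.6Null diamond stands nearer to XEN in the endoderm rows, as for XEN transcription factors (3.93 against 1.93 to 2.23 in the other lines).

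One programme that both cXENp1 and XEN express above ESC was mostly not called between them. Of 16 smooth muscle and contractile genes tested against XEN, 0 were called higher and 2 lower, against 18.0% and 20.4% of all genes. Most genes were not called either (7777 of 12632). The median difference of 0.02 was 0.88 without XENB1 and -0.74 without XEN5. At an unadjusted limma p under 0.05 the counts were 0 and 4. Against ESC 13 of 15 were higher in cXENp1 (22.9% of all genes), and in XEN against ESC likewise 13 of 15 (22.2% of 12372 genes). Tagln, an actin-binding protein of smooth muscle, had 172.3, 150.3, 218.9 and 122.2 FPKM against 261 and 51.8, and at most 0.440 in ESC (difference 0.47, 95% interval -0.87 to 1.82). Myl9, a myosin light chain, had 49.7, 45.0, 100.4 and 47.1 FPKM against 100.3 and 17.4 (0.43, 95% interval -1.09 to 1.94). The XEN lines differed from each other more than the cXENp1 lines did for both genes. The keratins Krt8 and Krt18 of simple epithelia were also not called (-0.91, interval -2.13 to 0.32, and -0.50, -1.51 to 0.50). The 2 exceptions were the muscle actins Acta2 (17.6, 6.46, 24.6 and 20.9 FPKM against 249.1 and 60.7) and Actg2 (at most 0.664 against 35.7 and 4.68). Acta2 was not called without XENB1.

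Genes listed as targets of TGF-beta and activin were called in both directions. Of 20 tested, 6 were called higher than XEN and 7 lower (4 lower without XENB1), against 18.0% and 20.4% of all genes. Among the higher genes, Nodal and Lefty2 had kept their ESC level, and Id1 and Id3 are also BMP targets. Skil, a SMAD feedback inhibitor, was above both ends, with 52.0, 36.8, 36.9 and 27.5 FPKM against 9.71 and 7.66. In contrast Ctgf had 15.5, 23.1, 41.3 and 114.1 FPKM against 2064 and 841.9 and the activin antagonist Fst had 3.57, 5.07, 6.30 and 6.83 against 198.9 and 386.2 (difference -5.46, SE 0.32, adjusted p 0.000131). Inhba, the activin A subunit itself, was at most 0.647 FPKM in the treated cells and 50.4 and 16.4 in XEN.

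Most transcription factors of XEN cells were well short of the XEN level. Against ESC, 15 of 19 were already higher, where all genes gave 22.9%. Of 20 tested against XEN, 14 were called lower and 1 higher, against 20.4% and 18.0% of all genes, with a median difference of -2.88. The count of lower genes was 5 without XENB1 and 1 without XEN5. Gata4, which with Gata6 specifies primitive endoderm, had 2.72, 0.923, 4.57 and 91.2 FPKM against 326.3 and 430.2 (difference -5.59, SE 1.37, adjusted p 0.0177). Gata6 had 18.2, 7.04, 6.88 and 43.3 FPKM against 157.9 and 196.1 (-3.54, SE 0.68, adjusted p 0.00701). Sox17 had 2.38, 1.95, 7.67 and 32.2 FPKM against 205.5 and 153.0, and its relative Sox7 0.505 to 1.37 in 3 lines and 25.99 in 2.6Null against 46.6 and 108.2. In each of these the 2.6Null library was nearest to XEN and no cXENp1 library reached it. Foxa2 and Foxq1, forkhead factors, had 3.90 to 23.7 and 7.86 to 50.5 FPKM against 93.3 and 71.9 and 138.4 and 144.1. Hnf4a, a visceral endoderm regulator, was at 0.127 to 0.168 FPKM in 3 lines and 2.56 in 2.6Null, against 7.54 and 12.5, a call lost without XEN5. Creb3l1, a factor of the secretory pathway, had 8.48, 5.54, 6.04 and 15.6 FPKM against 125.8 and 183.8 (-4.05, SE 0.39, adjusted p 0.000598) and was within 1 of its ESC level. Gata5, the only one called higher, had 1.25 to 2.88 FPKM and is listed at 0 in both XEN lines.

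Without one or the other XEN line, Gata4, Sox17, Sox7, Foxa2 and Foxq1 were each not called, with differences of the same sign, and Sox7 was also not called without 3WT or 3.34Null. The call for Gata6 was lost without XEN5. Classed without the cXENp1 library of 2.6Null, Gata4, Sox7 and Pdgfra had not begun to rise from ESC, whereas Gata6, Sox17 and Foxa2 had. The ESC mean used for this still included the ESC library of 2.6Null.

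Receptors and signalling factors of XEN cells differed in both directions, where 20.4% of all genes were called lower and 18.0% higher. Of 19 tested, 9 were called lower, 6 higher and 4 neither (5 lower without XENB1, 4 lower and 3 higher without XEN5). Pdgfra, the classical surface marker of primitive endoderm, had 2.77, 0.741, 1.68 and 14.8 FPKM against 64.6 and 114.0 (-4.41, SE 0.80, adjusted p 0.00592), a call lost without XEN5. Pth1r, the parathyroid hormone receptor of parietal endoderm, had 15.98, 6.31, 8.38 and 75.2 FPKM against 491.2 and 531.4 (-4.89, SE 0.85, adjusted p 0.00507). FGF receptors were exchanged: Fgfr1 (79.3, 50.8, 37.5 and 23.5 FPKM against 18.1 and 11.7) and Fgfr2 (22.8, 13.5, 17.0 and 11.2 against 3.38 and 7.58) were called higher in cXENp1, and Fgfr3 (0.624 to 12.2 against 20.4 and 52.4) and Fgfr4 (0.645 to 5.94 against 13.6 and 32.8) lower. Each of these 4 calls was lost when 1 XEN line was left out: XENB1 for Fgfr1, Fgfr2 and Fgfr3, XEN5 for Fgfr1, Fgfr3 and Fgfr4. Fgfr1 also lost it without 3.34Null or 3.34Null-Rescue. Bmp2, a secreted signal of the list, had 0.584, 1.14, 1.68 and 3.47 FPKM against 18.0 and 18.4.

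In RNA, structural genes of the basement membrane differed from XEN in both directions, and the listed enzymes that process collagen were lower. Of 23 genes tested, 13 were called lower and 7 higher, against 20.4% and 18.0% of all genes. However, 5 of the 7 (Lama1, Lamc1, Col4a1, Col4a2 and Sparc) are listed at 0 in both XEN lines. Without XEN5 the higher genes numbered 4. Their cXENp1 values, such as 43.6, 46.1, 51.3 and 771.7 FPKM for Col4a1 and 30.8, 12.2, 21.2 and 234.0 for Lama1, therefore have no endpoint here. Lamb1, the laminin beta subunit that XEN does list, had 64.4, 52.5, 56.8 and 278.3 FPKM against 1768 and 2386 (-4.57, SE 0.65, adjusted p 0.00256). The linker protein Nid1 was below both ends, at 7.27, 5.40, 6.93 and 18.2 FPKM against 151.8 and 569.7 in XEN and 24.3 to 44.6 in ESC. The other 2 higher genes were Col18a1, with 237.5, 217.9, 162.9 and 111.3 FPKM against 5.90 and 4.73 (4.81, SE 0.31, adjusted p 0.000149), and Lama5 (1.39).

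Among collagen-modifying enzymes, P4ha1, Plod1, Plod2, Plod3 and Lox had not begun to rise from ESC, and P4ha2 and Loxl2 had. The prolyl hydroxylase subunit P4ha1 had 11.96, 11.9, 8.78 and 52.2 FPKM against 298.9 and 417.4, with 7.14 to 23.8 in ESC. The lysyl hydroxylase Plod2 had 21.9, 18.0, 13.3 and 62.0 FPKM against 400.7 and 896.5, with 17.9 to 29.4 in ESC. Lox, which cross-links collagen and elastin, was at most 0.831 FPKM against 108.0 and 59.1 (-5.81, SE 0.30, adjusted p 9.08e-05). Serpinh1, the collagen chaperone, had also begun, at 229.3, 219.8, 146.3 and 504.0 FPKM against 2065 and 3473. Plod1 and Plod3 differed by -2.41 and -3.32. Of 20 parietal endoderm genes 13 were called lower, and 7 without XEN5; the 5 genes listed at 0 in XEN were called higher (3 without XEN5), and the median difference of -3.36 was -4.39 without them. All genes gave 20.4% lower and 18.0% higher than XEN. Thbd (thrombomodulin), which parietal endoderm expresses, was at most 0.853 FPKM against 49.3 and 218.4.

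Endocytosis and lysosome genes were mostly below XEN. Of 24 tested, 18 were called lower than XEN and 0 higher (21 and 0 at an unadjusted limma p under 0.05), with a median difference of -2.06; 11 were lower without XEN5 and 22 of 23 without 2.6Null. The shares over all genes were 20.4% lower and 18.0% higher than XEN. XEN against ESC gave 20 of 24 higher (22.2% of all genes). cXENp1 against ESC gave 6 higher and 2 lower, the higher share being near the 22.9% of all genes. Cd63, a membrane protein of late endosomes, had 76.6, 80.9, 96.1 and 269.3 FPKM against 1310 and 1348 (-3.55, SE 0.49, adjusted p 0.00227). The protease cathepsin H, encoded by Ctsh, had 1.79, 2.48, 4.39 and 16.2 FPKM against 261.2 and 302.4 (-5.69, SE 0.66, adjusted p 0.00127). Psap, the precursor of the saposins that aid lipid breakdown, had 157.4, 124.1, 112.5 and 138.6 FPKM against 489 and 664.2, with 2.6Null inside the range of the other lines. Lgmn, a lysosomal protease, had 20.2, 26.6 and 28.9 FPKM in 3 lines and 335.4 in 2.6Null, against 514.4 and 658.3. Its call was lost without any one of 3WT, 3.34Null, 3.34Null-Rescue, XENB1 and XEN5.

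Uptake receptors of visceral endoderm differed from one another and by line. Lrp2 (megalin) had 10.4, 8.37, 18.4 and 34.96 FPKM against 10.1 and 6.99, and at most 1.86 in ESC. It was not called against XEN (difference 0.81, 95% interval -0.40 to 2.02), but it was called higher with only the Zfp281KO libraries (1.49, adjusted p 0.044). Cubn (cubilin) had 1.28, 0.313 and 2.89 FPKM in 3 lines and 112.7 in 2.6Null, which is above XENB1 (17.8) and XEN5 (105.3). Dab2, an endocytic adaptor, had 16.6, 9.51, 6.65 and 143.6 FPKM against 113.5 and 231.7. Neither Cubn nor Dab2 was called over the 4 lines (adjusted p 0.212 and 0.0682), and both were called lower without 2.6Null, with differences of -4.30 and -3.86 (adjusted p 0.00466 and 0.000807). Of 17 visceral endoderm genes, 5 were called lower and 3 higher, where all genes gave 20.4% and 18.0%, so the list as a whole is near the background; 8 were lower without 2.6Null and 1 without XEN5. The 3 higher were Apob, Trf and Cyp26a1, the last also in the retinoic acid list.

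The largest single deficits by the naming rule were genes of several roles. Lyz2, a lysozyme, was at most 0.0567 FPKM in cXENp1 against 801.9 and 310.9 in XEN (-8.95, SE 0.35, adjusted p 7.44e-05), although it has a near-identical copy (Lyz1) with which fragments may be shared. Fxyd3, a regulator of the sodium pump, was at 0, 1.04, 0 and 4.90 FPKM against 205.1 and 259.4 (-6.96, SE 0.69, adjusted p 0.000704). Hs3st1, a heparan sulfate sulfotransferase, had 0.433, 0.352, 1.48 and 16.4 FPKM against 338.9 and 331.7. Epas1 (HIF-2alpha), a hypoxia factor, had 1.68, 0.521, 2.05 and 13.6 FPKM against 304.7 and 280.7. S100a4, Fbln2, Thbd, Enpep and Cited1 completed this group with differences from -6.79 to -5.99, together with Pga5 (-6.27). The call for Cited1 was lost without XEN5.

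Fibrillar collagens and other genes of a feeder fibroblast list were part of what cXENp1 lacked. Among all genes, 20.4% were called lower than XEN and 18.0% higher. Of 15 listed genes 13 were called lower than XEN and 0 higher (the same counts at an unadjusted limma p under 0.05), with a median difference of -3.10 (7 lower without XENB1 and 8 without XEN5). Col1a1 had 8.497, 2.38, 4.61 and 4.83 FPKM against 326.2 and 278.0 (-5.73, SE 0.37, adjusted p 0.000149). Postn (periostin) was at most 0.436 FPKM against 36.0 and 32.5, and Fbln2, an elastic fibre protein, at most 1.47 against 290.9 and 125.8. Dcn and Lum, which define fibroblasts in many tissues, were low and not called: Dcn had 7.53, 17.1, 4.96 and 0.372 FPKM against 5.37 and 6.36, and Lum at most 1.70 against 0.477 and 1.06. The mean log2 level of the whole list was 1.20 to 2.09 in cXENp1, 4.62 to 4.94 in XEN and 0.34 to 0.84 in ESC. Within cXENp1 it was lowest in 2.6Null (1.20), where the level of the basement membrane list was highest (5.21, others 4.39 to 4.81). The part of fibroblast RNA in the XEN lines, which are grown in medium from such cells but without feeders, was not tested.

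Of 20 cell cycle genes tested, 4 were called lower than XEN and 0 higher (4 and 1 at an unadjusted limma p under 0.05), and the lower share is near the 20.4% of all genes. The counts were 2 lower without XEN5, 1 lower and 1 higher without XENB1, and 2 lower and 3 higher after quantile normalization. Ccnd2 (49.1, 23.8, 19.3 and 19.4 FPKM against 102.1 and 70.0), Ccnd3 (74.2, 58.3, 47.6 and 91.9 against 193.3 and 163.1) and the inhibitor Cdkn1a (66.1, 35.9, 41.3 and 68.3 against 204.2 and 147.5) were called lower, with Cdk1. Mki67, a marker of cycling cells, differed by -0.03 (95% interval -0.41 to 0.34).

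The cXENp1 lines varied more in the lists of endoderm genes than in the retinoic acid or Hox lists. The median SD between lines was 0.25 on the log2 scale over all tested genes, 0.48 for the retinoic acid list and 0.47 for Hox genes. It was 0.89 for XEN transcription factors, 1.17 for visceral and 1.07 for parietal endoderm genes. Lists of other kinds also varied, as neural (0.77) and epithelial and mesenchymal genes (0.76). The classes did not show this order: the median SD was 0.28 for XEN genes not begun, 0.40 for those begun and 0.47 for genes above both ends. Of the 1242 XEN genes not begun, 794 (63.9%) were highest in 2.6Null, as were 174 of the 295 begun (59.0%) and 172 of the 254 below both ends (67.7%). That share was not counted over all genes tested. Of the 610 genes above both ends 66 (10.8%) were highest in 2.6Null. For genes kept at the ESC level it was 105 of 794 (13.2%), and for those falling from ESC 41 of 204 (20.1%). The other Zfp281KO line did not share this: the mean log2 level of XEN transcription factors was 2.23 in 3WT, 1.93 in 3.34Null-Rescue, 2.21 in 3.34Null and 3.93 in 2.6Null, with XEN at 4.98 and 5.23. The ESC library of 2.6Null already stood apart, at 1.90 against 0.83 to 1.04 in the other ESC libraries, with 12 FPKM of Gata4 where the others had 0.364 to 2.67. That ESC library carries another description prefix than the other 3 (XH, which all cXENp1 and XEN libraries share, in place of JH), and line and prefix cannot be told apart there. With only the 2 Zfp281-present libraries, 14 of 19 XEN transcription factors were lower than XEN, beside 2846 of 12224 genes over all. With only the 2 Zfp281KO libraries it was 9 of 20, beside 1257 of 12200, so that lower calls were fewer over all genes too. The retinoic acid list gave 16 and 15 of 22 higher in these 2 fits, and the Hox genes 23 of 29 and 22 of 31. Over all genes, 2313 and 1420 were higher. The difference between the genotypes was not tested here, since each rests on 2 unlike lines.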

How the data were processed

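Poly(A) RNA was sequenced as paired 150 bp reads, per the labels' protocols. The authors deposited 1 table per gene for all libraries, whose unit was taken as FPKM from the values and the tools named; STAR 2.5.3, Cufflinks 2.1.1 and mm9 are named in the submitters' processing notes, which do not give their roles. Depth is unknown, so precision rests on the spread between libraries. With no separate cultures of a line, p-values measure the spread between lines. Where the line is a block, they measure the spread of the change between lines.

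Values were compared as log2(FPKM + 1) with limma 3.58.1 (R 4.3.3; lmFit, eBayes with trend, two-sided, Benjamini-Hochberg adjustment), keeping genes with at least 1 FPKM in at least 2 fitted libraries: 12632 genes for cXENp1 against XEN, with no covariate. cXENp1 against ESC used the line as a block, since each of the 4 lines gave 1 library at each stage; XEN against ESC had none. These comparisons share libraries, so no overlap between them is reported. The ESC libraries of 3 lines carry another description prefix than all others, which touches both ESC comparisons. The description of classes, lists, the ESC to XEN line and promoters carries no test.

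Genes named are members of the lists, the 10 largest differences each way and the 6 leading genes of each class, with libraries that do not overlap; some members count in their lists and are not reported by name here. The members and lists were chosen with earlier results of these data known. On simulated data, 86.5% of 200 genes changed by 2 on the log2 scale were recovered for cXENp1 against XEN, with 11 false calls among 12632 genes. The changed genes were drawn from the more highly expressed ones, and noise was normal with the same SD in both groups. The rate therefore does not cover low genes or a line that stands apart, and far more genes (4855) were called in the data. Alternatives changed the pseudocount, filter, scaling, trend, minimum change, libraries fitted and each library left out. The cXENp3 libraries, of a later passage, entered only 2 alternative fits. The label of line 2.6Null is taken from the sample titles.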

Additional observations from a re-analysis of the deposited data

Results flagged for a closer look

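In 21 of 163 sets of 4 cXENp1 values examined (144 genes and 19 lists), 1 line stood apart from the other 3 by more than the 95% critical value of Dixon's test, which compares the gap to the nearest line with the range. Chance alone flags about 1 set in 20. The line was 2.6Null in 17 sets and 3.34Null in 4. Beside these values stands the ESC library of 2.6Null, which was already nearest to XEN of the ESC libraries (position 0.155 on the ESC to XEN line); the part of this in the values below was not tested.

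Among XEN regulators and receptors, 2.6Null was high for Sox7 (25.99 FPKM, others 0.505 to 1.37), Hnf4a (2.56, others 0.127 to 0.168) and Fgfr4 (5.94, others 0.645 to 0.882). For matrix genes it was high for Lamb1 (278.3 FPKM, others 52.5 to 64.4), P4ha1 (52.2, others 8.78 to 11.96) and Plod3 (45.4, others 17.8 to 19.4). For lysosome genes it was high for Ctsd (246.5 FPKM, others 113.0 to 127.5), Ctsl (573.0, others 129.0 to 158.9), Lamp1 (549.5, others 228.0 to 252.1) and Lgmn (335.4, others 20.2 to 28.9). It was low for Hoxa5 (55.3 FPKM, others 82.5 to 87.6) and Hoxb8 (29.9, others 73.6 to 85.6).

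The mean log2 level of 5 lists was also high in 2.6Null. These were XEN transcription factors (3.93, others 1.93 to 2.23), XEN receptors (3.45, others 2.39 to 2.56) and visceral endoderm (4.20, others 2.38 to 2.60). The rest were parietal endoderm (5.47, others 3.42 to 3.70) and endocytosis and lysosome genes (6.18, others 4.45 to 4.65). For visceral endoderm 2.6Null lay between XENB1 (3.93) and XEN5 (4.30), and for the other lists it was below both XEN lines.

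Line 3.34Null was low for Rarb (21.6 FPKM, others 33.6 to 36.7) and high for Myl9 (100.4, others 45.0 to 49.7). It was also the only line above 0.0699 FPKM for Inhba (0.647) and above 0 for Lyz2 (0.0567).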

How the results depend on the processing

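Of 131 called genes named, 0 reversed under any alternative. Calls were lost for 31 without XENB1 and 33 without XEN5 (of 122 with a value), for 15 with only the Zfp281KO libraries, for at most 7 without 1 cXENp1 line, and for 0 with a pseudocount of 0.1 or median centring. Differences that changed sign belong to genes that were not called. Without XEN5 these were Hoxc6 (-0.09), Tagln (-0.68), Myl9 (-0.80) and Cnn1 (-1.28). Krt18 was at 0.01 after quantile normalization and Cnn1, 0.01 over all libraries, at -0.13 with Zfp281-present libraries, -0.09 without 3WT, -0.04 without 3.34Null and -0.03 without 2.6Null. Over single libraries left out the ranges were -0.09 to 0.85 for Hoxc6, -0.68 to 1.63 for Tagln, -0.80 to 1.66 for Myl9 and -1.28 to 1.30 for Cnn1.

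No paired analysis was possible because no line was sampled both as cXENp1 and as XEN; for cXENp1 against ESC, 5242 genes were called with no replicate block against 5834 with it. In that comparison 3760 were called with line as a replicate block over 12 libraries (1934 higher, 1826 lower) and 2836 with a minimum change of 1 (1614 higher, 1222 lower), and 1567 were higher among genes averaging at least 5 FPKM. For cXENp1 against XEN, 3156 were called among genes averaging at least 5 FPKM (1193 higher) and 2677 with only the Zfp281KO libraries (1420 higher, 1257 lower); 1650 were lower by at least 1. With a class distance of 2 the classes held 239 genes above both ends, 388 at the ESC level, 44 falling, 40 below both ends, 694 not begun and 64 begun. The begun class held 493 with a pseudocount of 0.1 and 180 after quantile normalization, which left 3 primed epiblast genes higher.

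Leaving out 1 library gave 2056 to 5856 calls against XEN (1040 to 2729 higher, 1016 to 3127 lower). Leaving out 1 line or library gave 3806 to 6092 for cXENp1 against ESC (1776 to 3230 lower), and 2098 to 6235 for XEN against ESC (1093 to 3097 higher, 1005 to 3138 lower). The classes then held 320 to 783 genes above both ends, 479 to 877 at the ESC level, 108 to 207 falling, 123 to 389 below both ends, 572 to 1408 not begun and 173 to 268 begun. List counts ran from 3 to 7 (neural, higher), 4 to 7 (TGF-beta and activin, lower), 3 to 9 (primed epiblast, higher), 1 to 14 (XEN transcription factors, lower), 3 to 6 and 4 to 10 (XEN receptors, higher and lower) and 1 to 8 (visceral endoderm, lower). They ran from 3 to 5 and 7 to 15 (parietal endoderm, higher and lower), 4 to 8 (basement membrane, higher), 11 to 22 (lysosome, lower), 2 to 6 and 3 to 9 (epithelial and mesenchymal, higher and lower) and 7 to 13 (feeder fibroblast, lower). The highest count against XEN, 5856, was without 2.6Null and the lowest, 2056, without XEN5; the cause was not tested. With no depth in the table, values near 0 cannot be told from failed estimates.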

Other observations

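Of 15 target genes of FGF and ERK signalling tested, 4 were called higher in cXENp1 than in XEN and 4 lower by limma, near the 18.0% and 20.4% of all genes. Dusp6, a phosphatase induced by ERK, had 60.4, 42.7, 118.9 and 85.2 FPKM in 3WT, 3.34Null-Rescue, 3.34Null and 2.6Null against 11.6 and 21.5 in XENB1 and XEN5, a call lost without XENB1. Spry1, a feedback inhibitor, kept its ESC level, at 11.4, 4.74, 12.9 and 13.8 FPKM against 0.965 and 0.467. Of 8 trophoblast genes 3 were called higher and 1 lower, and without XENB1 or XEN5 the counts were 0 and 0. The housekeeping gene Gapdh differed by -0.09 (95% interval -0.65 to 0.48).

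The BMP targets Id1 and Id3 were above both ends. Id3 had 313.3, 109.8, 219.3 and 293.5 FPKM in cXENp1 against 77.9 and 58.5 in XEN, a difference of 1.67 that was not called without XENB1 or XEN5. Apoe, a lipid carrier of visceral endoderm, was not called between cXENp1 and XEN, and its 43.8, 60.03, 167.8 and 337.4 FPKM were below every ESC library (507.7 to 1779).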
